A study of Mus musculus with 12 samples.

Results

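The glucose uptake and glycolysis genes described here are Slc2a1, Hk1, Hk2, Pfkp, Pfkfb3, Aldoa, Pgk1, Ldha, Pdk1 and Vegfa. They were taken by symbol from a count table of 24062 gene symbols, all 10 were found, and all 10 passed the filter on low counts, which left 12154 genes for testing. RNA was sequenced from mouse embryonic fibroblasts (MEFs) that express an shRNA against Renilla luciferase (shRenilla, the control) or an shRNA against Birc6, the gene for the giant ubiquitin ligase BRUCE (shBruce). Cells of both lines were kept in full medium (FM) or were starved for 2 h in a medium without serum and amino acids (Starv), which gave 4 conditions with 3 replicates each. The growth medium of the MEFs in the study is a high-glucose DMEM with fetal calf serum, whereas the glucose content of the starvation medium is not given in the sources used here. For other assays, such as the screen, the study's methods name Earle's balanced salt solution as starvation medium. Their section on RNA sequencing names none. Both lines carry a retroviral shRNA and there is 1 line for each shRNA, so effects of the knockdown and other differences between the lines cannot be told apart. The labels do not say whether replicates are separate cultures, so p-values measure the spread between these libraries, which may be technical.

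Cells take up glucose through facilitative transporters and split it in glycolysis into pyruvate, which is reduced to lactate in the cytosol or oxidised in mitochondria. Transcription of many of these genes is raised by the hypoxia-inducible factors (HIF) and by MYC, and growth factors and amino acids act on the same genes through mTORC1. Fibroblasts in culture rely on Slc2a1 (GLUT1) as their main glucose transporter and release much of the carbon as lactate.

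Total counts ranged from 7717265 in shBruce Starv replicate 1 to 18510540 in shRenilla FM replicate 1. Among the members, the fewest reads were counted for Pfkfb3 in shBruce Starv replicate 1 (71 reads) and the most for Ldha in shBruce FM replicate 3 (17821 reads). Birc6 had normalized counts from 703 to 1390.4 in the 6 shBruce libraries and from 2787 to 5061 in the 6 shRenilla libraries, with the lowest shRenilla values in Starv replicate 3 (2787) and FM replicate 2 (3273). Some libraries stood apart from their condition. Over all genes tested, shBruce Starv replicate 3 had Spearman correlations of 0.986 to 0.993 with the shRenilla Starv libraries and of 0.952 and 0.975 with those of its own condition. The value of shRenilla FM replicate 2 was 0.996 with shBruce FM replicate 1 and 0.995 at most with its own condition. For shBruce FM replicate 1 the highest value in its own condition was 0.99570, just below its 0.99578 with shRenilla FM replicate 2. shRenilla Starv replicate 3 had 0.9928 with shBruce Starv replicate 3 and at most 0.9924 with its own condition. shBruce Starv replicate 2 had 0.979 with shRenilla Starv replicate 3 and at most 0.975 with its own condition. Fibroblast markers gave a summed normalized count of 117832 to 172312, with Col1a1, Col1a2, Vim and Fn1 each at 13983 or more, while Thy1 (0 to 2.45) and Dcn (6.94 to 50.5) were near 0 or low in every library. Epithelial markers summed to 44.4 or less, endothelial markers to 32.3 or less and muscle markers to 42.4 or less, and each of these sums was highest in shBruce Starv replicate 1, the library with the fewest reads. Of the immune markers, summing to 72.3 to 144, Cd68 had the highest counts. A possible part of these markers in the results was not tested, and in bulk RNA fewer cells of a type and less RNA per cell cannot be told apart.

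Promoter sequences are shown for the 3 members that fell in starvation in at least 1 line, Slc2a1, Hk2 and Ldha, since HIF and MYC bind short motifs that such genes are known to carry. The letters searched were ACGTG and GCGTG, the core of the hypoxia response element, and CACGTG, the E-box bound by MYC, on both strands. CACGTG contains ACGTG on each strand, so each such site also counts as a pair of ACGTG matches. RefSeq promoters (GRCm38.p6, 250 bases before to 50 after a start) were found for all 10 members, 17 promoters in all. The stretches below end where annotated exons begin, positions are counted from the transcription start, and capitals mark the searched letters on either strand, so that CACGT and CACGC are ACGTG and GCGTG read from the other strand.
Slc2a1, chr4:119108495-119108710, plus strand: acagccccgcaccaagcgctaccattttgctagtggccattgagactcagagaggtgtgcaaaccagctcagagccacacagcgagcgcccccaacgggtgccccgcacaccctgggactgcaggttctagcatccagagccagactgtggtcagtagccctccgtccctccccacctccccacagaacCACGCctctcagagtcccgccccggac
Hk2, chr6:82774455-82774704, minus strand: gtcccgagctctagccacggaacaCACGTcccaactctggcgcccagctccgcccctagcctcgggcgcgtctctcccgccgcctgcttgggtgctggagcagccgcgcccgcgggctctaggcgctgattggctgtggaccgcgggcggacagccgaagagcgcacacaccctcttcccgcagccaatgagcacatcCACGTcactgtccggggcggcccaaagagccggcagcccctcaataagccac
Ldha, chr7:46845554-46845803, plus strand: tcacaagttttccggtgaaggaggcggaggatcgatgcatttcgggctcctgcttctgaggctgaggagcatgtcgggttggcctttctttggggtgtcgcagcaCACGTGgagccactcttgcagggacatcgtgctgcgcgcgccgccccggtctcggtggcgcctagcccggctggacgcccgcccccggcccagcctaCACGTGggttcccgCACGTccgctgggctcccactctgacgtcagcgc
The Slc2a1 stretch holds GCGTG at position -61, and an ACGTG at -36 runs over its end. In the Hk2 promoter, ACGTG stands at -226 and -52. The first Ldha promoter has CACGTG at -145 and -48 and a further ACGTG at -34. ACGTG was found in at least 1 promoter of 8 members, GCGTG of 7 and CACGTG of 2, Ldha and Pfkfb3. Counted by promoter, ACGTG was in 10, GCGTG in 8 and CACGTG in 2 of the 17, while 19.6%, 32.4% and 7.15% of all 32851 promoters of this length hold these letters. These promoters are not all separate: 2 Aldoa promoters overlap, and their ACGTG at -126 and -202 is the same site. Members with several promoters have more chances of a match, and no share by gene was computed. Such a match is a description of the sequence and shows no binding.

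Levels were compared between members as normalized counts per kb of transcript, a scale that corrects for length. Ldha, which reduces pyruvate to lactate, had the highest level in shRenilla FM (6795 ± 340.1 per kb, SD, n = 3), followed by Aldoa (5208 ± 397 per kb, SD, n = 3). The hexokinase Hk1 came next at 623 ± 21.8 per kb (SD, n = 3) and Slc2a1 at 421 ± 18.7 per kb (SD, n = 3), and the ranges of these 4 genes did not touch. Hk2 (273 ± 4.25 per kb, SD), Vegfa (262 ± 14.3), Pgk1 (246 ± 22.8) and Pfkp (228 ± 6.88) followed, with n = 3 each, and the ranges of neighbours in this order overlapped. Pdk1 (71.5 to 81.7 per kb) and Pfkfb3 (35.9 to 45.0 per kb) were lowest, each below the gene before it without overlap. Ldha, Aldoa and Hk1 held the first 3 places and Pdk1 and Pfkfb3 the last 2 in all 4 conditions. Slc2a1 was the fourth in both FM conditions, and was the seventh in shRenilla Starv (238 ± 14.6 per kb, SD, n = 3) and the sixth in shBruce Starv (261 ± 40.3 per kb, SD, n = 3), where its range overlapped with those of Pgk1 and Pfkp. In both shBruce conditions the ranges of Ldha and Aldoa overlapped, for example 7923 to 9738 and 6478 to 8298 per kb in FM. The level of Pgk1 is uncertain, since 68.0% of the 50-base stretches of its transcript also occur in transcripts of other genes, mainly the copy Pgk1-rs7 and pseudogenes. This share was 17.1% for Pfkp, 16.6% for Ldha, 13.5% for Aldoa and under 3% for the other 6 members. It is not stated how reads with several positions were counted.

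**Figure D1:**
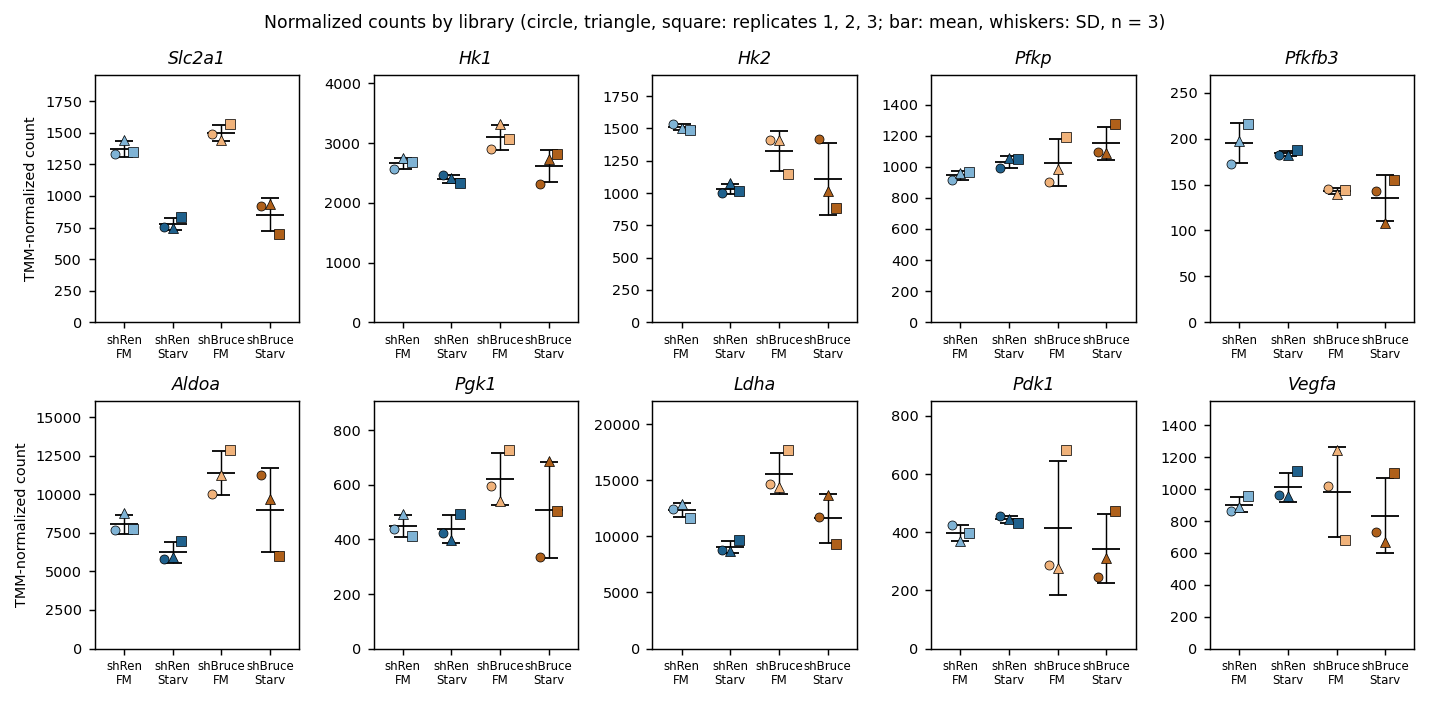
Normalized counts of each of the 10 members (vertical axis, TMM-normalized count, from 0) in the 4 conditions (horizontal axis); circle, triangle and square are replicates 1, 2 and 3, bars are means and whiskers SD (n = 3). For Slc2a1 all 6 Starv libraries (700.3 to 938) lie below all 6 FM libraries (1329.6 to 1569), and for Pfkfb3 all 6 shBruce libraries (108 to 155) lie below all 6 shRenilla libraries (172 to 216).

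Starvation for 2 h lowered the glucose transporter gene in both lines and lowered 2 further members by a smaller amount. Slc2a1 fell to 0.565 of its FM level in shRenilla MEFs and to 0.567 in shBruce MEFs. Ldha fell to 0.735 and 0.746, and Hk2 fell to 0.686 in shRenilla MEFs. In all, 3 of 10 members were lower and 0 higher in shRenilla MEFs at an adjusted p under 0.05, where 17.0% of all genes tested were called, 7.27% lower and 9.69% higher. In shBruce MEFs, 2 of 10 were lower and 0 higher, where 23.0% of all genes were called, 10.6% lower and 12.4% higher. The median log2 fold change of the members was -0.12 in shRenilla and -0.26 in shBruce MEFs, beside -0.0051 and 0.02 for all genes tested. Replicates of FM and Starv did not overlap for 7 members in shRenilla MEFs (52.4% of all genes) and for 3 in shBruce MEFs (30.9%). These values come from edgeR's quasi-likelihood test on all 12 libraries, two-sided, with p-values adjusted after Benjamini and Hochberg across the 12154 genes, and fold changes are Starv over FM. In this fit the 4 conditions share 1 estimate of the spread, so a p-value for 1 line also rests on the spread of the other. When only the 2 conditions compared were fitted, 41.9% of genes were called in shRenilla and 8.11% in shBruce starvation (edgeR). With 3 libraries against 3, the exact permutation test cannot give a p below 0.1.

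Slc2a1 (chromosome 4, 119108711 to 119137983, plus strand) encodes GLUT1, which carries glucose across the plasma membrane. Its normalized counts in shRenilla MEFs were 1329.6, 1442 and 1345 in FM and 751, 745 and 830.1 in Starv. In shBruce MEFs they were 1491, 1444 and 1569 in FM and 916, 938 and 700.3 in Starv. Every Starv library was below every FM library, in each line and across the lines. The 6 Starv and 6 FM libraries did not overlap for 15.8% of all genes tested, with Starv lower for 7.68%. The log2 fold change was -0.82 in shRenilla (standard error 0.12, adjusted p = 0.000639, edgeR) and -0.82 in shBruce MEFs (standard error 0.13, adjusted p = 0.000609, edgeR). Slc2a1 passed in all 12 fits that each left out 1 library and in all 10 other alternatives, in each line, with log2 fold changes of -0.88 to -0.74 in shRenilla and -0.90 to -0.70 in shBruce MEFs. The value closest to 0 in shBruce MEFs came without Starv replicate 3, the lowest of its condition. The difference between the lines in this response was 0.0036 on the log2 scale (95% confidence interval -0.37 to 0.38, adjusted p = 0.997, edgeR).

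The hexokinases trap glucose in the cell as glucose 6-phosphate. Hk2 (chromosome 6, 82725025 to 82774454, minus strand) encodes the inducible form that can bind mitochondria, and Hk1 (chromosome 10, 62268855 to 62379908, minus strand) the form present in most cells. Hk2 counts in shRenilla MEFs were 1534, 1500.4 and 1488 in FM and 1003, 1078 and 1019.6 in Starv. The shBruce libraries had 1412, 1412 and 1144 in FM and 1419, 1015 and 884 in Starv. The shRenilla conditions were far apart against their spread, whereas shBruce Starv replicate 1 was as high as the FM libraries. Hk2 fell in shRenilla MEFs (log2 fold change -0.54, standard error 0.16, adjusted p = 0.0298, edgeR), and in shBruce MEFs its log2 fold change was -0.26 (standard error 0.16, adjusted p = 0.244, edgeR). Without any 1 of the 6 shRenilla libraries, Hk2 no longer passed in shRenilla MEFs (adjusted p of 0.0755 to 0.106, edgeR), with log2 fold changes of -0.58 to -0.52. It passed there in all 10 other alternatives, with an adjusted p of 0.000291 when only the 2 shRenilla conditions were fitted (edgeR). Without shBruce Starv replicate 1, Hk2 fell in shBruce MEFs too (-0.49, adjusted p = 0.00833, edgeR). The responses of the lines differed by 0.28 on the log2 scale (95% confidence interval -0.20 to 0.76, adjusted p = 0.806, edgeR), so a different response of Hk2 was not shown. Hk1 counts went from 2565 to 2749.9 in FM to 2334 to 2468 in Starv in shRenilla MEFs, and from 2905 to 3319 to 2309 to 2812 in shBruce MEFs. FM and Starv did not overlap in either line, but the log2 fold changes of Hk1, -0.15 and -0.24, had adjusted p-values of 0.376 and 0.123 (edgeR). In shBruce MEFs Hk1 passed with the Wald test of DESeq2 (-0.26, adjusted p = 0.0316).

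Phosphofructokinase commits the sugar to glycolysis. Pfkp (chromosome 13, 6579768 to 6648777, minus strand) encodes its platelet-type subunit, and Pfkfb3 (chromosome 2, 11471433 to 11554077, minus strand) an enzyme that makes its activator fructose 2,6-bisphosphate. Pfkp counts were 913 to 967 in FM and 989 to 1056 in Starv in shRenilla MEFs, and the log2 value of this change was 0.12 (standard error 0.12, adjusted p = 0.528, edgeR). In shBruce MEFs, Pfkp counts were 899 to 1192 and 1088 to 1274, which gave 0.17 (standard error 0.12, adjusted p = 0.346, edgeR). Pfkp was the only member above 0 in both lines, and its FM and Starv libraries overlapped in shBruce MEFs. Pfkfb3 counts in shRenilla MEFs were 172, 198 and 216 in FM and 183, 183 and 188 in Starv. In shBruce MEFs they were 145, 139 and 144 in FM and 143, 108 and 155 in Starv. Starv and FM overlapped in both lines, with log2 fold changes of -0.08 in each and 95% confidence intervals of -0.41 to 0.24 and -0.42 to 0.26.

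Aldoa (chromosome 7, 126795234 to 126800751, minus strand) encodes aldolase A, which splits fructose 1,6-bisphosphate, and Pgk1 (chromosome X, 106187100 to 106203699, plus strand) the kinase of the first step that yields ATP. Aldoa counts in shRenilla MEFs were 7678, 8776 and 7749 in FM and 5814, 5905 and 7001 in Starv. The shBruce counts of Aldoa were 10034, 11279 and 12854 in FM and 11279.7, 9671 and 5970.5 in Starv. The shRenilla conditions did not overlap, while in shBruce MEFs Starv replicate 1 lay among the FM libraries and replicate 3 lay far below its neighbours. The log2 fold changes of Aldoa were -0.37 (standard error 0.19, adjusted p = 0.211, edgeR) and -0.34 (standard error 0.19, adjusted p = 0.217, edgeR). Aldoa passed in shBruce MEFs without Starv replicate 1 (-0.56, adjusted p = 0.0417, edgeR), with -0.12 without Starv replicate 3, and in shRenilla MEFs without shBruce Starv replicate 3 (-0.37, adjusted p = 0.0446, edgeR). Pgk1 counts were 414 to 495 in FM and 396 to 494 in Starv in shRenilla MEFs, and 542 to 727 and 337 to 688 in shBruce MEFs. The Pgk1 conditions overlapped in both lines (log2 fold changes -0.04 and -0.28, adjusted p = 0.925 and 0.362, edgeR).

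Ldha and Pdk1 act where pyruvate is turned to lactate or kept from mitochondria. Ldha (chromosome 7, 46841475 to 46855627, plus strand) encodes the lactate dehydrogenase A subunit. Its counts in shRenilla MEFs were 12402, 12914 and 11685 in FM and 8754, 8741 and 9699.6 in Starv. In shBruce MEFs they were 14680.1, 14381 and 17674 in FM and 11754, 13729.7 and 9362 in Starv. Every Starv library was below every FM library of its line. Ldha fell in both lines with adjusted p-values close to the threshold, -0.44 in shRenilla (standard error 0.14, adjusted p = 0.0499, edgeR) and -0.42 in shBruce MEFs (standard error 0.14, adjusted p = 0.0491, edgeR). The call was kept in 4 of the 12 fits that left out 1 library in shRenilla and in 2 of 12 in shBruce MEFs, with log2 fold changes between -0.50 and -0.42 and between -0.57 and -0.29. It was lost in shRenilla MEFs without any 1 of the 6 shRenilla libraries and without shBruce FM replicate 1 or 2 (adjusted p of 0.0621 to 0.161, edgeR). In shBruce MEFs it was kept without shBruce Starv replicate 1 or 2 and lost without any 1 of the other 10 libraries (adjusted p of 0.0588 to 0.149, edgeR). Of the 10 other alternatives, Ldha passed in 7 in shRenilla and in 6 in shBruce MEFs. When only the 2 conditions compared were fitted, its adjusted p was 0.00144 in shRenilla and 0.248 in shBruce MEFs (edgeR). Pdk1 (chromosome 2, 71873224 to 71903858, plus strand) encodes a kinase that switches off pyruvate dehydrogenase. Its counts in shRenilla MEFs were 424, 371 and 397 in FM and 456, 447 and 432 in Starv. In shBruce MEFs they were 289, 276 and 681 in FM and 246, 312 and 474 in Starv, so that FM replicate 3 was more than the sum of the other two. The log2 fold changes of Pdk1 were 0.16 (standard error 0.30, adjusted p = 0.748, edgeR) and -0.26 (standard error 0.31, adjusted p = 0.571, edgeR), and the value in shBruce MEFs was 0.29 without FM replicate 3.

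Vegfa (chromosome 17, 46016993 to 46032369, minus strand) encodes a secreted growth factor for blood vessels and is no enzyme of glycolysis, but is a classical HIF target. Its counts in shRenilla MEFs were 863, 890.2 and 959 in FM and 964, 955 and 1116 in Starv. The shBruce counts of Vegfa were 1018, 1244 and 683 in FM and 729, 667 and 1103 in Starv. Vegfa overlapped between FM and Starv in both lines, and in shBruce MEFs FM replicate 3 lay among the other Starv libraries and Starv replicate 3 among the other FM libraries. The log2 fold changes of Vegfa were 0.16 (standard error 0.21, adjusted p = 0.642, edgeR) and -0.23 (standard error 0.21, adjusted p = 0.459, edgeR), the latter -0.50 without shBruce Starv replicate 3 (adjusted p = 0.0700, edgeR).

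**Figure D2:**
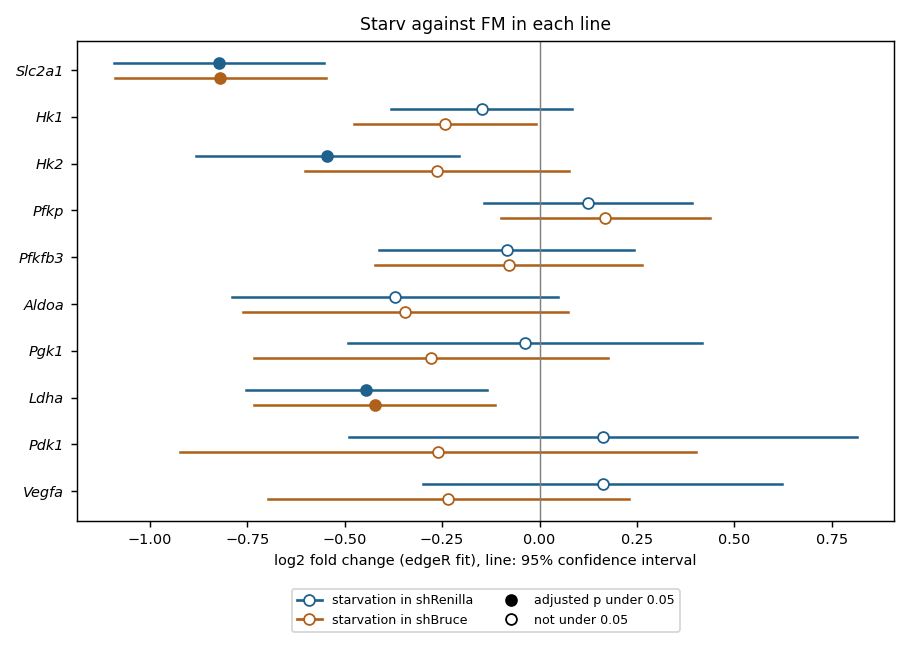
Log2 fold change of Starv over FM (horizontal axis) for each member (vertical axis), in shRenilla MEFs (blue) and shBruce MEFs (brown); lines are 95% confidence intervals and filled circles mark an adjusted p under 0.05 (edgeR). Slc2a1 is farthest from 0 at -0.82 in both lines, Ldha is filled in both and Hk2 in shRenilla MEFs, and the intervals of the other members include 0 except that of Hk1 in shBruce MEFs (-0.48 to -0.0093).

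The starvation response of no member was shown to depend on the line. The test of the interaction of line and medium called 0 of 10 members and 0% of all genes tested by edgeR, with 474 of 12154 at an unadjusted p under 0.05 and 0 of the members among them. Of all genes, DESeq2 called 2 and limma-voom 0, and neither called a member. The smallest adjusted p among the members was 0.806. The widest intervals were those of Pdk1 (-0.42, 95% confidence interval -1.35 to 0.50) and Vegfa (-0.40, 95% confidence interval -1.05 to 0.26), so these data leave room for sizeable differences in either gene.

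Between the lines, no member passed the threshold in FM or in Starv. Pfkfb3, Aldoa and Ldha had an unadjusted p under 0.05 in both media, with lower values of Pfkfb3 and higher values of Aldoa and Ldha in shBruce MEFs, and Pgk1 had one in FM. In FM, 0 of 10 members and 0% of all genes tested were called by edgeR, whereas 4 members and 1750 genes had an unadjusted p under 0.05. DESeq2 called 98 genes and limma-voom 0 in FM, none of them a member. Birc6, the gene knocked down, was at -1.75 in FM (adjusted p = 0.0627, edgeR) and at -1.98 in Starv (adjusted p = 0.0186, edgeR). The FM test thus missed Birc6 too, and members without a call there may still differ. In Starv, 0 of 10 members were called by edgeR, where 23.9% of all genes were called. An unadjusted p under 0.05 was found there for 3 of 10 members and for 5009 of all 12154 genes. The 2 lines did not overlap for 7 members in FM (33.4% of all genes) and for 2 in Starv (34.9%). The median log2 fold change of shBruce over shRenilla was 0.12 in FM and 0.13 in Starv for the members, beside 0.0064 and -0.0012 for all genes tested.

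Pfkfb3 was lower in every shBruce library (108 to 155) than in every shRenilla library (172 to 216), and the lines did not overlap over both media for 4.73% of all genes tested, with shBruce lower for 2.67%. Its log2 fold change was -0.45 in FM (standard error 0.15, adjusted p = 0.299, edgeR) and -0.45 in Starv (standard error 0.16, adjusted p = 0.0538, edgeR). In Starv it passed without shBruce Starv replicate 3 (-0.58, adjusted p = 0.0113, edgeR), with DESeq2's Wald test (adjusted p = 0.0352) and with at least 10 counts in every library (adjusted p = 0.0493, edgeR). Aldoa was higher in the 3 shBruce FM libraries than in the 3 of shRenilla (log2 fold change 0.50, standard error 0.19, adjusted p = 0.309, edgeR), and in Starv the lines overlapped because shBruce Starv replicate 3 (5970.5) lay among the shRenilla libraries (5814 to 7001). The Starv log2 fold change of Aldoa was 0.52 (standard error 0.19, adjusted p = 0.0633, edgeR) and 0.74 without that library (adjusted p = 0.00119, edgeR). Ldha had log2 fold changes of 0.34 in FM (standard error 0.14, adjusted p = 0.323, edgeR) and 0.36 in Starv (standard error 0.14, adjusted p = 0.0807, edgeR), the latter 0.49 without shBruce Starv replicate 3 (adjusted p = 0.00730, edgeR). Vegfa was the fourth member to pass in Starv without this library, at -0.54 (adjusted p = 0.0392, edgeR) in place of -0.28 (adjusted p = 0.347, edgeR). In that fit 46.7% of all genes tested were called. The share was 4.68% without shBruce Starv replicate 1 and 0.122% without replicate 2, and 0 genes were called by edgeR without shRenilla Starv replicate 1 or replicate 2, so the 23.9% depends on single libraries. Pgk1 had log2 fold changes of 0.47 in FM and 0.23 in Starv (adjusted p = 0.334 and 0.432, edgeR). The differences of Slc2a1 (0.13 and 0.13), Hk1 (0.22 and 0.12), Pfkp (0.12 and 0.16) and Hk2 (-0.19 and 0.09) in FM and Starv were smaller, and those of Pdk1 (0.07 and -0.36) had confidence intervals of -0.59 to 0.72 and -1.02 to 0.30. Without shBruce FM replicate 3, the FM difference of Pdk1 was -0.49 (adjusted p = 0.429, edgeR).

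**Figure D3:**
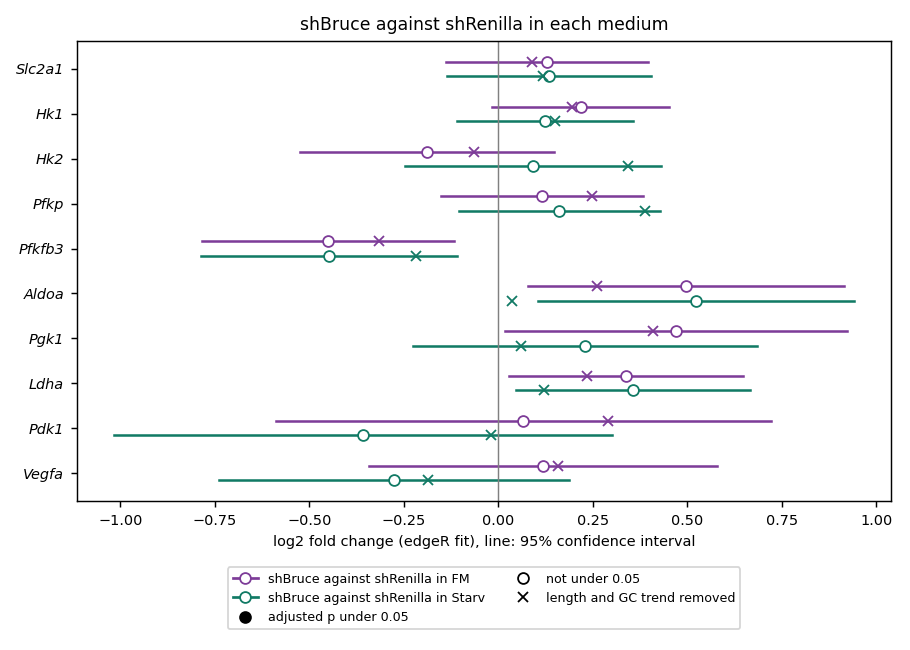
Log2 fold change of shBruce over shRenilla (horizontal axis) for each member (vertical axis), in FM (purple) and Starv (green); circles and lines are the edgeR values with 95% confidence intervals, all open since none had an adjusted p under 0.05, and crosses are the values after the length and GC trend of each library was taken out. For Aldoa in Starv the cross lies at 0.04 beside a circle at 0.52, and for Pfkfb3 in Starv at -0.22 beside -0.45.

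Differences between the lines moved with transcript length. Over the 12051 genes tested that have a length and GC content, the log2 fold change of shBruce over shRenilla had a Spearman correlation with length of -0.49 in FM and -0.57 in Starv, a description across genes, which share the libraries. Genes under 2000 bases had a median of 0.20 in FM and 0.40 in Starv, and genes of 4000 bases or more -0.18 and -0.31. Of the 4 members with an unadjusted p under 0.05 in FM, Aldoa (1549 bases), Ldha (1815) and Pgk1 (1825) are short and Pfkfb3 is long (4801 bases), while the long Hk1 (4278 bases) and Pfkp (4145 bases) also had values above 0. After the length and GC trend of each library was taken out, the values in Starv were 0.04 for Aldoa, 0.12 for Ldha, 0.06 for Pgk1 and -0.22 for Pfkfb3, and those in FM were 0.26, 0.24, 0.41 and -0.31. In the same fit Pfkp was at 0.39 (adjusted p = 0.0513, edgeR) and Hk2 at 0.34 (adjusted p = 0.209, edgeR). The starvation responses moved less with length (0.20 in shRenilla and -0.12 in shBruce MEFs), and Slc2a1 stayed at -0.83 and -0.80. There, Ldha fell by 0.44 in shRenilla and by 0.55 in shBruce MEFs on the log2 scale (adjusted p = 0.0157 and 0.00340, edgeR), Hk2 fell in shRenilla MEFs (-0.63, adjusted p = 0.0185, edgeR), and Aldoa fell in shBruce MEFs (-0.52, adjusted p = 0.00839, edgeR).

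Of the other genes of glucose uptake, glycolysis and pyruvate handling, 29 of 39 in the table were tested. In shRenilla MEFs, 2 rose and 2 fell in starvation, with a median log2 fold change of -0.0056, and in shBruce MEFs 3 rose and 3 fell, with a median of -0.12. Over all genes tested, 17.0% were called in shRenilla and 23.0% in shBruce starvation. Bpgm, which makes 2,3-bisphosphoglycerate, fell in both lines (-0.78 and -0.77, adjusted p = 0.00225 and 0.00199, edgeR). Pdk2, a pyruvate dehydrogenase kinase like Pdk1, rose in both (0.89 and 0.96, adjusted p = 0.0223 and 0.0125, edgeR), from 53.9 to 60.0 normalized counts in FM to 98.2 to 109 in Starv in shRenilla MEFs. Pfkfb2, a relative of Pfkfb3, rose in shRenilla MEFs (1.01, adjusted p = 0.0275, edgeR) and had a value of 0.88 in shBruce MEFs (adjusted p = 0.0502, edgeR). In shBruce MEFs, the enolase gene Eno2 (0.92) and the transporter gene Slc2a8 (0.76) rose, and Pgam1 (-0.84) and the kinase gene Pdk3 (-0.40) fell, against 0.36, 0.49, -0.58 and -0.06 in shRenilla MEFs, which did not pass. Gapdh was called lower in shRenilla MEFs (-0.74, adjusted p = 0.0412, edgeR), but 82.5% of its 50-base stretches and 41.5% of those of Pgam1 occur in transcripts of other genes, and the normalized counts of Gapdh were only 41.5 to 95.6. Between the lines in Starv, Pkm (0.50), Gpi1 (0.46) and Eno3 (0.69) were higher and Pfkfb2 (-0.88) lower in shBruce MEFs, 4 of 29 genes, of which Pkm, Gpi1 and Eno3 were named after their values were seen. The share of all genes called there was 23.9%, and 5.58% with the length and GC trend removed. Whether these genes, or those of the next list, keep their calls in that fit was not examined. Of the 50-base stretches of Pkm, Gpi1 and Pfkfb2, 34.4%, 25.3% and 25.1% also occur in transcripts of other genes. Pfkfb2 overlapped between the lines, with shBruce Starv replicate 3 (331) above the lowest shRenilla Starv library (319). Of the 7 genes of the pentose phosphate branch, which shares glucose 6-phosphate with glycolysis, 0 passed in shRenilla MEFs (edgeR). There, 2 of these 7 had an unadjusted p under 0.05, beside 3838 of all 12154 genes. Only G6pdx, for the first enzyme of the branch, fell in shBruce MEFs (-0.72, adjusted p = 0.000834, edgeR). Between the lines in Starv, 3 of these 7 were higher in shBruce MEFs (Pgls 0.93, Pgd 0.47 and Taldo1 0.48, named after their values were seen), beside 23.9% of all genes called. The shBruce Starv counts of Pgls were 1195, 606 and 435, highest in replicate 1, the library with the fewest reads. Replicate 3 lay among the shRenilla Starv libraries for Pgls (333 to 482) and for Pgd (1942, against 1684 to 2022). For Taldo1 it lay just above them (1520, against 1296 to 1517).

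**Figure D4:**
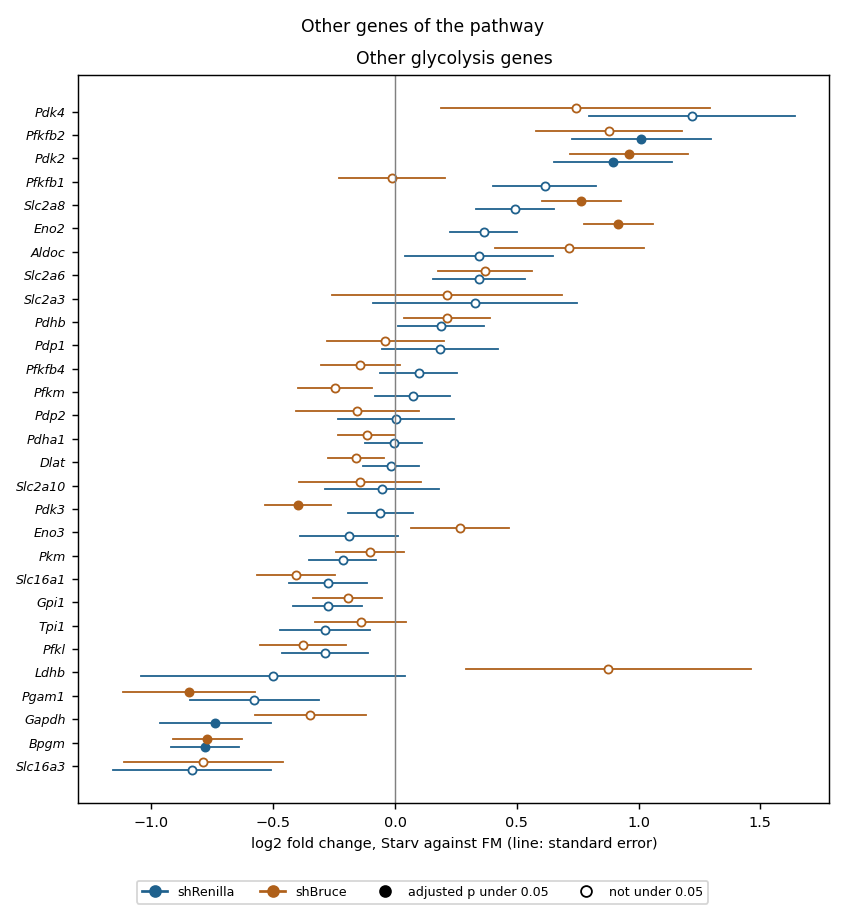
Log2 fold change of Starv over FM (horizontal axis) for the 29 other glycolysis genes tested (vertical axis), in shRenilla MEFs (blue) and shBruce MEFs (brown); lines are standard errors and filled circles mark an adjusted p under 0.05 (edgeR). Most circles are open and lie on both sides of 0, with Pdk2 filled to the right and Bpgm filled to the left in both lines.

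Genes known as HIF targets outside glycolysis did not move in a common direction. Of 23 tested, 5 rose and 3 fell in shRenilla MEFs (median log2 fold change -0.16), and 4 rose and 8 fell in shBruce MEFs (median -0.11). Among all genes tested, 9.69% rose and 7.27% fell in shRenilla MEFs, and 12.4% rose and 10.6% fell in shBruce MEFs. Several genes of this list stood apart in shBruce FM replicate 3, as seen from their values. Car9 (299, against 72.2 and 77.5) and P4ha1 (3911, against 2380 and 2284) were higher there than in replicates 1 and 2. Others, such as Pgf (81.3, against 152 and 162), were lower there. Adm, which encodes the vasodilator adrenomedullin, fell in both lines (-2.68 and -2.67), with 43.4 to 57.1 normalized counts in shRenilla FM and 6.06 to 8.78 in shRenilla Starv. Pgf, a growth factor of the VEGF family, fell by 1.93 and 1.54 on the log2 scale. Bhlhe40, which encodes a transcriptional repressor, fell by 0.88 and 1.10. Ak4 fell in shBruce MEFs (-1.30), with -0.68 in shRenilla MEFs (adjusted p = 0.0637, edgeR). Its shBruce counts were 155, 133 and 267 in FM, highest in replicate 3, and 58.5 to 82.7 in Starv. In the other direction, Ndrg1 rose from 2048 to 2122 normalized counts in shRenilla FM to 5382 to 5819 in shRenilla Starv (1.43, and 1.27 in shBruce MEFs). Ddit4, an inhibitor of mTORC1, rose by 1.68 and 1.26, Angptl4 by 1.27 and 1.18, and Mxi1, an antagonist of MYC, by 1.10 and 0.93. The log2 fold changes of the members lay between -0.82 and 0.17 in both lines. Of 7 other VEGF ligands and receptors, 0 passed in either line, with 0 at an unadjusted p under 0.05 in shRenilla and 1 in shBruce MEFs (edgeR). Over all 12154 genes, 3838 and 4409 had such a p.

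Regulators of these pathways were described from a list of 14 genes, 13 of which were tested (Hif3a was not). The HIF subunit genes did not pass in starvation, with Hif1a at 0.04 and -0.20, Epas1 at 0.08 and -0.90 and Arnt at 0.25 and 0.20 in shRenilla and shBruce MEFs. The shBruce FM counts of Epas1 were 53.1, 56.5 and 154, highest in replicate 3. Of the genes whose products mark HIF for destruction or inhibit it, Vhl (0.29 and 0.38), Egln2 (0.07 and 0.30) and Hif1an (0.15 and -0.0091) did not pass. The HIF prolyl hydroxylase genes Egln1 and Egln3, counted above among the HIF targets and named after their values were seen, fell in shBruce MEFs (-0.55 and -1.09, adjusted p = 0.0203 and 0.0132, edgeR) and were at -0.32 and -0.34 in shRenilla MEFs without passing. The shBruce counts of Egln3 were 68.0, 66.0 and 139 in FM, so replicate 3 stood apart, and 38.4 to 44.8 in Starv. Myc fell in shBruce MEFs (-1.12, adjusted p = 0.0128, edgeR) and was at -0.73 in shRenilla MEFs (adjusted p = 0.0941, edgeR), where its counts were 2838 to 3055 in FM and 1725 to 1861 in Starv. In shBruce MEFs the Myc count of FM replicate 3 (1785) lay below that of Starv replicate 3 (1842). Txnip and Arrdc4 are arrestin-like genes driven by the glucose-sensing MondoA and MLX pair, and TXNIP protein takes GLUT1 off the cell surface. Txnip rose more than any other gene of these lists, from 242 to 279 normalized counts in FM to 3248 to 3409 in Starv in shRenilla MEFs (log2 fold change 3.66, standard error 0.38) and from 95.2 to 129.8 to 1171 to 4296 in shBruce MEFs (4.34, standard error 0.40). The highest shBruce Starv value of Txnip, 4296, was that of replicate 3. Arrdc4 rose by 2.04 and 1.89 on the log2 scale. Mlx fell in both lines (-1.18 and -1.10), and Mlxip, the gene for MondoA, fell in shBruce MEFs (-0.55, adjusted p = 0.0216, edgeR) and was at -0.23 in shRenilla MEFs. Foxk2, a forkhead factor linked to glycolytic genes, fell in both lines (-0.64 and -0.77), while Foxk1 was at 0.35 and 0.17 without passing. Between the lines in Starv, Hif1a (-0.66, adjusted p = 0.0270, edgeR) and Foxk2 (-0.40) were lower and Egln2 (0.52) was higher in shBruce MEFs. Of all genes, 23.9% were called there. Whether these regulators keep their calls with the length and GC trend removed was not examined. In FM, 0 regulators passed (edgeR), and 4 of 13 had an unadjusted p under 0.05, beside 1750 of all 12154 genes.

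**Figure D5:**
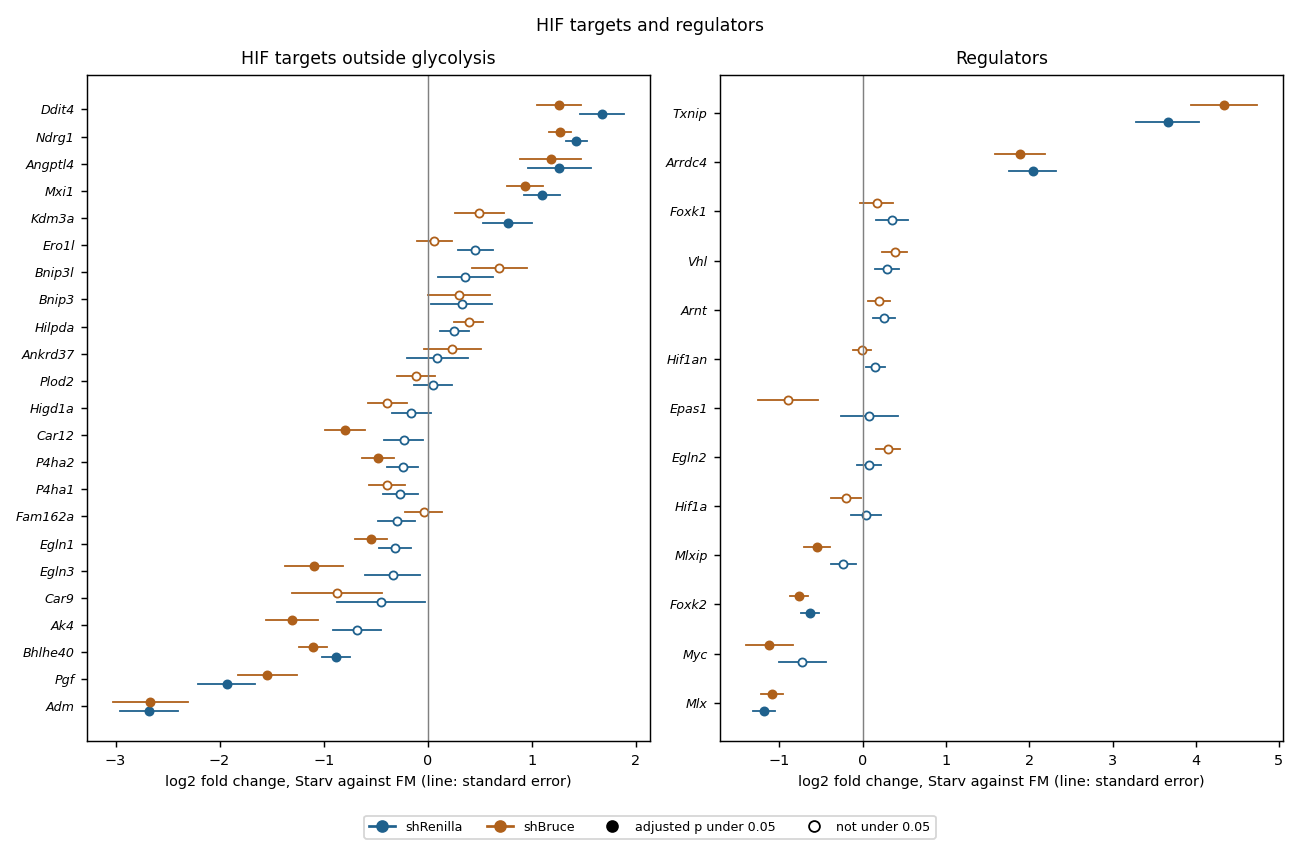
Log2 fold change of Starv over FM (horizontal axes) for 23 HIF targets outside glycolysis (left) and 13 regulators (right), in shRenilla MEFs (blue) and shBruce MEFs (brown); lines are standard errors and filled circles mark an adjusted p under 0.05 (edgeR). HIF targets spread from Adm at -2.68 to Ddit4 at 1.68 in shRenilla MEFs, and Txnip lies farthest right at 3.66 and 4.34.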

How the data were processed

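RNA-Seq of 12 MEF libraries was analysed. According to the study's methods, the authors selected poly(A) RNA, read 50 bases from one end, discarded rRNA reads, mapped what remained to mm10 with STAR 2.4.0d and counted reads per gene with HTSeq 0.5.4p3. The annotation, strand setting and overlap mode are not given in the sources used here. The deposited values are raw read counts, of which 0 columns were left unused and 0 rows name no gene. In them, 27 symbols had been turned into dates (0.296% of all counts) and 2 were repeated.

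Counts were fitted with edgeR 4.0.16 (R 4.3.3, TMM, filterByExpr, condition means fitted to all 12 libraries, quasi-likelihood test). Normalized counts are counts scaled by TMM-effective library sizes to their geometric mean. Alternatives used DESeq2 1.42.0, limma-voom 3.58.1 (the authors' method), other scalings and filters, fits to the compared conditions alone, a block for the replicate number, each library left out, and removal of each library's trend against length and GC content (spline, 4 degrees of freedom). Python 3.11.15 made tables and figures. On simulated starvation of shRenilla MEFs over 12066 genes, 75 of 100 genes changed 2-fold and 93 of 100 changed 4-fold were recovered, with 4 false calls. Changes below 2-fold, such as those of all members, and deviations that many genes of a library share were not simulated. Library spread exceeded counting error (chi-square per degree of freedom 2.18 to 92.3 between replicates).

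Replicate numbers did not pair libraries (correlations of deviations from -0.456 to 0.347). Members and lists were chosen with earlier results of these data known. From each list, up to 4 rising and 4 falling genes called in either starvation comparison without overlap are named, and every regulator. One further gene of the HIF list is not reported here and is in no count. GENCODE M21 (GRCm38) gave positions, transcript lengths and GC content, matched by symbol for 22724 rows directly and 934 through older names.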

Additional observations from a re-analysis of the deposited data

How the results depend on the processing

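In starvation, the members called numbered 1 to 4 in shRenilla MEFs across the fits that left out 1 library (3 with all, 1 without any 1 of the shRenilla libraries, 4 without shBruce Starv replicate 3) and 1 to 4 in shBruce MEFs (2 with all, 4 without shBruce Starv replicate 1). The share of all genes called in shRenilla MEFs was 9.34% to 12.2% without 1 shRenilla library and 25.5% without shBruce Starv replicate 3. For shBruce MEFs the share was 23.9% without shBruce Starv replicate 1. Across the 10 other alternatives, 2 to 4 members were called in shRenilla MEFs, where 10.0% to 41.9% of all genes were called. In shBruce MEFs the count was 1 with upper-quartile scaling, with at least 10 counts in every library, and with only the groups compared, and 3 with DESeq2's Wald test (Hk1 added) and with the length and GC trend removed (Aldoa added). Shares of all genes called in these fits were, in this order, 24.1%, 23.2%, 8.11%, 17.3% and 33.0%. Between the lines, the count was 0 in every left-out fit in FM and 1 (Aldoa) with only the groups compared, and in Starv it was 0 to 4 across left-out fits, 4 without shBruce Starv replicate 3, 3 with DESeq2's Wald test and 1 with at least 10 counts in every library. All genes were called at 5.11% in FM with only the groups compared. The Starv shares were 46.7% without shBruce Starv replicate 3, 20.3% with DESeq2 and 27.4% with at least 10 counts. The cause was not tested. Of 1090 alternative values for single members, 991 kept direction and side of the threshold, 16 gained and 31 lost a call, and 52 reversed; 36 of 50 member comparisons had no reversal.

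The following log2 values reversed in at least 1 alternative. Pgk1 in shRenilla starvation was 0.044 with upper-quartile scaling and -0.13 to 0.028 with libraries left out, and Pfkfb3 in shBruce starvation 0.0083 and -0.21 to 0.065. Pdk1 ranged from -0.57 to 0.29 in shBruce starvation and from -0.49 to 0.29 between the lines in FM (-0.061 with limma-voom). With libraries left out, the FM difference ranged from -0.0065 to 0.20 for Pfkp and from -0.088 to 0.32 for Vegfa, and the Starv difference from -0.14 to 0.23 for Hk2 and from -0.048 to 0.43 for Pgk1. The interaction ranged from -0.079 to 0.13 for Slc2a1 (-0.011 with limma-voom, -0.0057 without a filter), -0.13 to 0.15 for Pfkfb3 (-0.021 and -0.0088), -0.20 to 0.25 for Aldoa (-0.013 with limma-voom), -0.042 to 0.17 for Pfkp, -0.12 to 0.15 for Ldha and -0.73 to 0.13 for Pdk1. Without the length and GC trend it was -0.22 for Aldoa and -0.11 for Ldha.

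With the replicate number as a block, which does not pair these libraries, the count called in shBruce starvation was 1, Ldha losing its call in both lines (adjusted p = 0.0842 and 0.0793, edgeR), Pdk1 in FM was at -0.034, and the interaction at -0.0011 for Slc2a1 and -0.0083 for Pfkfb3. Block and trend removal together gave interactions of -0.23 for Aldoa and -0.11 for Ldha. The block called 1770, 2450 and 1932 genes in shRenilla starvation, shBruce starvation and between the lines in Starv, against 2061, 2790 and 2907.

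Counts over all genes moved by more than 1.5 times with only the groups compared (5013 in shRenilla starvation, 956 in shBruce starvation, 597 between the lines in FM, 0 in Starv) and between the lines in Starv with the length and GC trend removed (678, and 1 with the block). Between the lines in FM, DESeq2 called 98 genes, no filter 7 and trend removal 2, against 0. With 1 library left out, 1149 to 3212 genes were called in shRenilla starvation (1149 to 1224 without any 1 shRenilla library but Starv replicate 3, 3212 and 3131 without shBruce Starv replicates 1 and 3) and 0 to 32 between the lines in FM. Between the lines in Starv, 0 were called without shRenilla Starv replicate 1 or 2, 15, 573 and 5735 without shBruce Starv replicates 2, 1 and 3, and 1855 in shBruce starvation without shBruce FM replicate 2. Standard errors of Pdk1, Vegfa and Pgk1 (0.21 to 0.31) were above that of Ldha (0.14), so their differences are less precise.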
